A study of Homo sapiens with 2 samples.

Results

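E proteins and their ID inhibitors are the 7 genes TCF3, TCF4, TCF12, ID1, ID2, ID3 and ID4, taken by Entrez number from a table of 25702 gene features, and all 7 were found in it. RNA was sequenced from REH cells (labelled REH-R), an established human line of B-ALL, an acute leukaemia of early B-lineage cells, carrying a tetracycline-regulated cassette with either PAX5-IRES-GFP or, as the control, IRES-GFP alone. PAX5 is a transcription factor that B-lineage commitment depends on, GFP marks the cells in which the cassette is on, and the IRES lets GFP be translated from the same transcript. Both cultures were given doxycycline at 1 µg/mL for 3 days and both were sorted for GFP before RNA was extracted. Each group was 1 library (called PAX5 cells and control cells below), so differences have no replicate check and p-values are not given.

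E proteins are basic helix-loop-helix (bHLH) transcription factors that bind the E-box as dimers, with one another or with tissue-restricted bHLH partners. In B-cell precursors they act upstream of and together with EBF1 and PAX5 to open the B-lineage programme and immunoglobulin gene rearrangement. ID proteins have the helix-loop-helix but no DNA-binding basic region, so an E protein paired with an ID protein cannot bind its site, and the balance of E to ID protein sets E protein activity. The counts below measure transcript and not protein, and gene counts do not separate the E12 and E47 splice forms of TCF3 or the many isoforms of TCF4 and TCF12.

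Depth was 11944765 counts for PAX5 cells and 10997864 for control cells. PAX5 itself had 8319 counts in PAX5 cells and 2660 in control cells, or 2.91-fold (2.78 to 3.04), and transcript of the cassette and of the endogenous gene cannot be told apart. Levels are given as CPM, which is counts per 1000000 after scaling, or per length as CPM per kilobase, the scale on which levels of different genes are compared. Where counts or CPM of several genes are added or set against each other, they count reads, of which a longer gene gives more per transcript. Ratios are PAX5 cells over control cells, each with a 95% interval from the exact binomial distribution of counts, which compares these 2 libraries and covers counting error only. A gene was called when the bound of that interval nearest to no difference reached 2-fold or more, provided that its counts in both added up to 10 or more. By that rule 1.34% of 13532 features were called higher and 0.0517% lower, 1.40% in all. All 9 B-cell precursor markers examined were measured, and their summed level was 7825 CPM in PAX5 cells and 7598 CPM in control cells.

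ID2 was the 1 member called, and it was higher in PAX5 cells. The 3 E protein genes and ID3 were abundant in both libraries and differed by 1.05-fold to 1.36-fold, with TCF4 at the top of that range. ID1 was near the limit of detection and ID4 was below it. Of the 7 members, 6 reached 10 counts, and 5 of these had counting intervals above 0 and none below, where 18.7% of all features had intervals above 0 and 16.8% below, 35.5% in all. Among the 5339 features with at least 1000 counts, whose intervals are narrow, 28.7% had intervals above 0 and 53.8% had intervals off 0. The median log2 ratio of the 6 was 0.20, against -0.01 over all features with at least 10 counts.

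**Figure D1:**
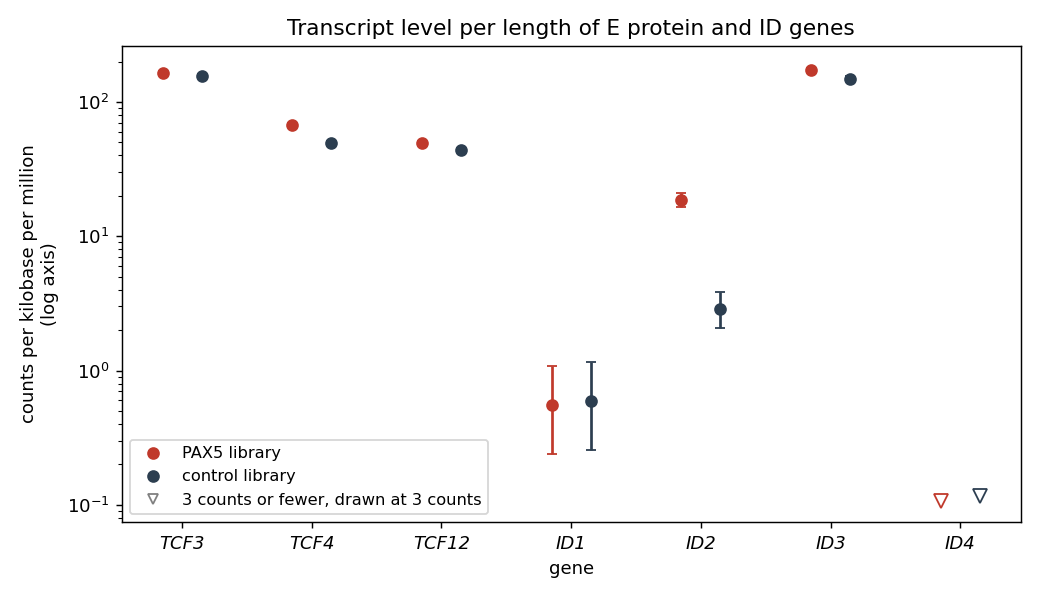
Level per length (CPM per kilobase, log axis) of the 7 genes in PAX5 cells (left of each pair) and the control library, with exact Poisson 95% intervals of counting error; many are narrower than the point. Open triangles stand for ID4, which had 3 counts or fewer and is drawn at the level of 3 counts, while ID2 is the gene whose intervals lie far apart, at 18.6 in PAX5 cells and 2.85 in control cells.

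Among the activators, TCF3 (E2A, Entrez 6929), the E protein that B-cell development depends on most, had 9198 counts (773.6 CPM) in PAX5 cells and 8108 counts (733.8 CPM) in control cells. The log2 ratio was 0.08 (0.03 to 0.12), or 1.05-fold (1.02 to 1.09), and it ranked 5042 from the highest of 13489 features with a ratio. TCF3 was therefore at nearly the same level in both libraries. Per length it was also the most abundant E protein, at 166 CPM per kilobase (95% interval 162 to 169) in PAX5 cells and 157 (154 to 160) in control cells.

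TCF4 (E2-2, Entrez 6925), the E protein known for its role in plasmacytoid dendritic cells, had 6720 counts (565.2 CPM) in PAX5 cells and 4578 counts (414 CPM) in control cells. The log2 ratio was 0.45 (0.39 to 0.50), or 1.36-fold (1.31 to 1.42). TCF4 was thus higher in PAX5 cells beyond counting error, and it was the E protein with the highest ratio, but it was not called. It ranked 226 among the 5339 features with at least 1000 counts and 1444 among all 13489 ranked. The 5 dendritic cell markers examined summed to 21.3 CPM in PAX5 cells and 26.0 CPM in control cells, IRF7 made up most of that sum, CLEC4C and CD1C had 0 counts in both, and LILRA4 had 1 count in PAX5 cells and 0 in control cells.

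TCF12 (HEB, Entrez 6938), the E protein best known from thymocyte development, had 2895 counts (243 CPM) in PAX5 cells and 2388 counts (216 CPM) in control cells. Its log2 ratio was 0.17 (0.09 to 0.25), or 1.13-fold (1.07 to 1.19). TCF12 lay between TCF3 and TCF4 in ratio and was the least abundant of the 3 per length, at 49.5 CPM per kilobase in PAX5 cells and 43.9 in control cells. The noncoding gene TCF12-DT, which adjoins its start, had 63 counts in PAX5 cells and 45 in control cells, too few to separate from no difference (log2 ratio 0.38, -0.20 to 0.96). The strand setting of the counting is not given in the sources used here, so reads of such overlapping genes cannot be told apart.

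The make-up of the E protein pool can be read without scaling of the libraries, because genes of the same library are set against each other. A trend of the ratios with gene length is not removed by this. The median log2 ratio was 0.19 in the length group of TCF4 and 0.06 in that of TCF3 and TCF12, so the values below for TCF4 include that trend. For every 1000 TCF3 counts there were 731 TCF4 counts in PAX5 cells and 565 in control cells, a ratio of ratios of 1.29 (1.23 to 1.36). For TCF12 there were 315 per 1000 TCF3 counts in PAX5 cells and 295 in control cells, at 1.07 (1.00 to 1.14). TCF4 was higher relative to TCF12 as well, with a ratio of ratios of 1.21 (1.13 to 1.29). Per length, TCF3 made up 58.5% of the E protein level in PAX5 cells and 62.6% in control cells, TCF4 made up 24.0% in PAX5 cells and 19.8% in control cells, and TCF12 made up 17.5% in both.

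The E protein genes together had 18813 counts (1582 CPM) in PAX5 cells and 15074 counts (1364 CPM) in control cells, a log2 ratio of 0.21 (0.18 to 0.24). Of the 218 CPM by which the PAX5 library was higher, TCF4 accounted for 151 CPM, TCF3 for 39.8 CPM and TCF12 for 27.4 CPM. TCF4, the longest of the 3, thus held the greater part of the difference in summed CPM.

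**Figure D2:**
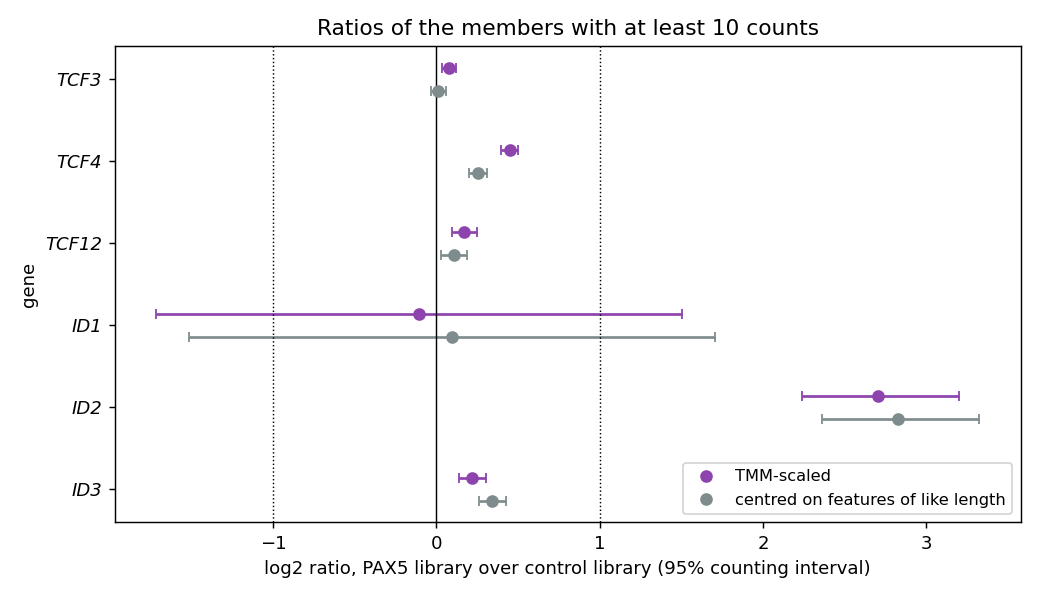
Log2 ratio, PAX5 library over control library, of the 6 members with at least 10 counts, with 95% counting intervals. The upper point of each gene is the TMM-scaled ratio and the lower point the same ratio after the median of features of like length was taken off, dotted lines mark 2-fold, and the ID2 intervals alone lie wholly beyond it.

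Because ID2 was called and the other ID genes were not, the 250 bases before the RefSeq transcription start of each ID gene (build GRCh38.p14) are shown, read along the gene. The windows are chr20:31605039-31605288 on the plus strand for ID1, chr2:8681806-8682055 on the plus strand for ID2, chr1:23559502-23559751 on the minus strand for ID3 and chr6:19837120-19837369 on the plus strand for ID4. Capitals mark the E-box CANNTG, the letters GCGNGGGCG of an EGR site and the letters GCGTGAC from the core of the PAX5 motif, each searched on both strands.
ID2: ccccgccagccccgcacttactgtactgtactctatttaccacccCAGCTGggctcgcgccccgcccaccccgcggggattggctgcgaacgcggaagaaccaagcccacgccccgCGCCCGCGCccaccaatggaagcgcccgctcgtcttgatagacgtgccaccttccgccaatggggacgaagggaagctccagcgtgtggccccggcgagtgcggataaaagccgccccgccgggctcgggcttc
ID3: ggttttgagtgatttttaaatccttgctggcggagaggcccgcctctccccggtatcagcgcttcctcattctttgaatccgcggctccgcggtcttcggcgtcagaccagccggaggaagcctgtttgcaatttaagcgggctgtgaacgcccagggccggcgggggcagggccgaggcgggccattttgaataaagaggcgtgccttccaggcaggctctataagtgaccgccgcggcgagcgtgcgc
ID1: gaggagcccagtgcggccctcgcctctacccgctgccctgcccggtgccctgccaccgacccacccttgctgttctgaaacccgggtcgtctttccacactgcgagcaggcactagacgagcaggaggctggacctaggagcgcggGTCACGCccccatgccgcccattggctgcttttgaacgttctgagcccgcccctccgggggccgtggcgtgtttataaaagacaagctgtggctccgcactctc
ID4: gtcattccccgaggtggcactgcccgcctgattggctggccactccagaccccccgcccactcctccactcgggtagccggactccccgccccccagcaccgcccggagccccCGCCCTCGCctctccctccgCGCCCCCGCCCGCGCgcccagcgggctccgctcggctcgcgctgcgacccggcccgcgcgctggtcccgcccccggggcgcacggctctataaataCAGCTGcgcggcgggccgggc

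The ID2 window held 1 E-box (CAGCTG) 205 bases before the start, 1 EGR match 134 bases before it and no match to GCGTGAC. The ID3 window held none of the 3 motifs. The ID1 window held 1 match to GCGTGAC (on the opposite strand), 104 bases before the start. The ID4 window held 1 E-box and 3 EGR matches, of which 2 overlapped. Of 35116 RefSeq windows of the same length, 61.8% held CANNTG, 8.41% held GCGNGGGCG and 2.20% held GCGTGAC. The CCAAT box occurred 3 times in the ID2 window, as it or more often did in 2.93% of windows, and once each in those of ID1 and ID4. Neither the E-box form CAGGTG (17.5% of windows) nor the BMP-responsive letters GGCGCC (16.4%) occurred in any ID window. Of the windows of the E protein genes, which number 1 for TCF3, 10 for TCF4 and 5 for TCF12, none held CAGGTG or GCGTGAC. A match is a description of the letters and does not show binding.

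Among the inhibitors, ID2 (Entrez 3398), which is required for natural killer and other innate lymphoid cells in the mouse, had 302 counts (25.4 CPM) in PAX5 cells and 43 counts (3.89 CPM) in control cells. The control library therefore already held ID2 transcript, well above the 0.272 CPM that 3 counts amount to in it. The log2 ratio was 2.71 (2.24 to 3.20), or 6.53-fold (4.73 to 9.21). By ratio ID2 ranked 88 of 13489, and by its bound it stood at place 62 of the 182 features called higher. Of those 182, 72 had at least 1 CPM in control cells, and ID2 stood at place 8 among them.

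Markers of other cell types known for ID2 were mixed in level, and their part in the ID2 difference was not tested. Of 6 natural killer and innate lymphoid markers, GNLY, KLRD1 and GZMB had 0 counts in both libraries, PRF1 had 0 counts in PAX5 cells and 3 in control cells, NKG7 had 27 and EOMES 7 in PAX5 cells against 46 and 4 in control cells, and the list summed to 2.86 CPM in PAX5 cells and 4.80 CPM in control cells. Myeloid markers summed to 22.4 CPM in PAX5 cells and 31.9 CPM in control cells, with S100A8 at 0 counts in both. Most of that was ITGAM, with 222 counts (18.7 CPM) in PAX5 cells and 278 (25.2 CPM) in control cells, and CSF1R had 14 counts in PAX5 cells and 41 in control cells (log2 ratio -1.66, -2.65 to -0.75). T cell markers were at 0 for 4 of 5 genes, and the other, CD3E, had no count in PAX5 cells and 1 in control cells. Erythroid markers summed to 0.168 CPM in PAX5 cells and 0 in control cells, and fibroblast and endothelial markers to 10.4 CPM in PAX5 cells and 9.23 CPM in control cells, nearly all of it COL1A1. No marker on any of these lists was called. In bulk RNA, a change in the share of cells that express a gene and a change in RNA per cell cannot be told apart.

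ID3 (Entrez 3399), an inhibitor of TCF3 in B cells, had 2657 counts (223 CPM) in PAX5 cells and 2119 counts (192 CPM) in control cells. Its log2 ratio was 0.22 (0.14 to 0.30), or 1.17-fold (1.10 to 1.23). ID3 was by far the most abundant ID transcript, at 174 CPM per kilobase (167 to 180) in PAX5 cells and 149 (143 to 155) in control cells. Its level per length was close to that of TCF3, with 1.05 ID3 per TCF3 in PAX5 cells and 0.948 in control cells.

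ID1 (Entrez 3397), an ID gene known as a direct target of bone morphogenetic protein (BMP) signalling, had 8 counts in each library, at 0.673 CPM in PAX5 cells and 0.724 CPM in control cells. The ratio was 0.929-fold with an interval of 0.304 to 2.84, so a difference within that range was not detectable at this depth. ID4 (Entrez 3400) had 1 count in PAX5 cells and 0 in control cells. Both ID4 counts lie under the level of 3 counts, which is 0.252 CPM in PAX5 cells and 0.272 CPM in control cells, and no ratio is given for ID4.

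The order of levels per length was ID3, TCF3, TCF4, TCF12, ID2, ID1 and ID4 in PAX5 cells. In the control library TCF3 stood above ID3, and the rest of the order was the same. The counting intervals of ID3 and TCF3 overlapped in PAX5 cells (167 to 180 CPM per kilobase for ID3 and 162 to 169 for TCF3), and in control cells (143 to 155 for ID3 and 154 to 160 for TCF3). All other neighbours in the order had intervals that did not overlap, ID1 and ID4 included, although ID4 was under the level of 3 counts.

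The ID genes together had 2968 counts (249.6 CPM) in PAX5 cells and 2170 counts (196 CPM) in control cells, a log2 ratio of 0.35 (0.27 to 0.43). Of the 53.2 CPM by which the PAX5 library was higher, ID3 accounted for 31.7 CPM and ID2 for 21.5 CPM. The small ratio of the abundant ID3 thus added more reads than the large ratio of ID2, and the genes are of similar length. Per length, ID3 made up 90.0% of the ID level in PAX5 cells and 97.7% in control cells, and ID2 made up 9.66% in PAX5 cells and 1.87% in control cells. Set against ID3 within each library, there were 114 ID2 counts per 1000 ID3 counts in PAX5 cells and 20.3 in control cells, a ratio of ratios of 5.60 (4.04 to 7.94).

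The balance of the families, as summed E protein level per length over summed ID level per length, was 1.47 (1.41 to 1.53) in PAX5 cells and 1.65 (1.57 to 1.72) in control cells. The PAX5 value was 0.892 times the control value (0.840 to 0.947). E protein transcript therefore exceeded ID transcript per length in both libraries, by a somewhat smaller factor in PAX5 cells. Without ID2 the same quotient was 0.969 (0.912 to 1.03), an interval that held 1. These intervals cover counting error only, and the quotient was not run with an assumed biological variation. With an assumed biological coefficient of variation of 0.1, the intervals of both summed log2 ratios held 0. They were -0.19 to 0.61 for the E protein genes and -0.06 to 0.75 for the ID genes.

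**Figure D3:**
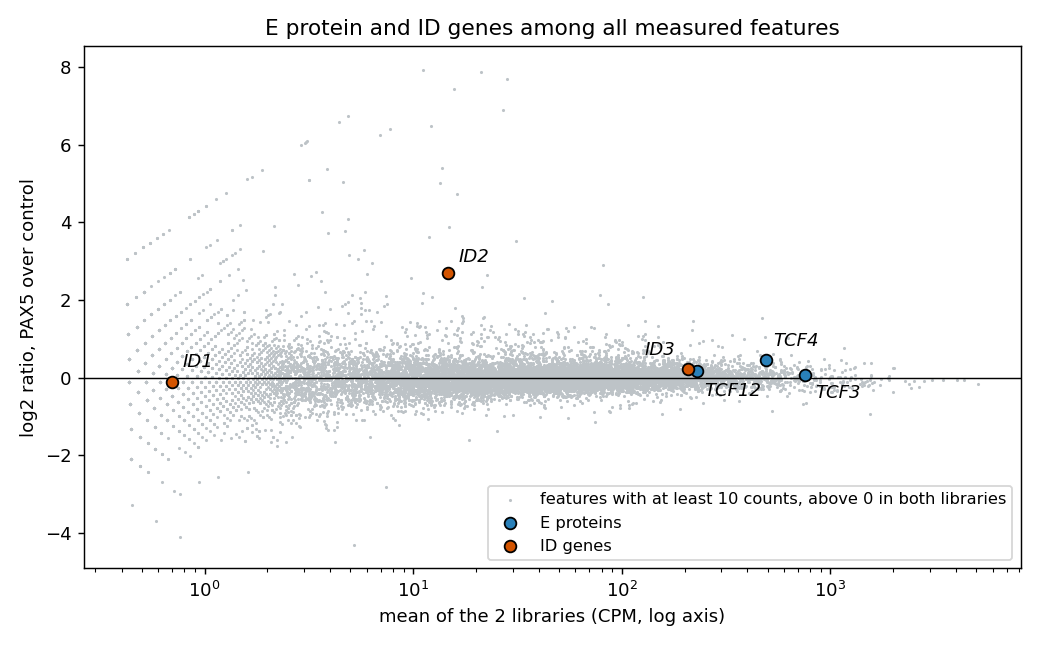
Log2 ratio, PAX5 library over control library, against the mean level of both libraries (CPM, log axis) for features with at least 10 counts and a count above 0 in each. The E proteins and ID3 lie in the dense band of abundant features near 0, with TCF4 at 0.45, and ID2 stands above the band at 2.71.

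Gene length moved with these ratios. Features of at least 100 counts were divided into 10 groups by length, and the median log2 ratio was -0.20 in the shortest group (median length 941 bases) and 0.19 in the longest (8295 bases). TCF4, with 8332 bases, fell in the longest group, TCF3 (4673 bases) and TCF12 (4922 bases) in a group with a median of 0.06, and ID2 (1364 bases) and ID3 (1288 bases) in a group with a median of -0.12. Relative to the median of its own length group, TCF4 had a log2 ratio of 0.25 (0.20 to 0.31), TCF12 of 0.11 (0.03 to 0.19) and TCF3 of 0.013 (-0.03 to 0.06). On the same footing ID3 had 0.34 (0.26 to 0.43) and ID2 had 2.83 (2.37 to 3.33). The interval of TCF3 then held 0, and ID3 stood above TCF4 where the unadjusted ratios have TCF4 above ID3. The E protein to ID quotient, PAX5 over control, was 0.767 after the same centring and 0.834 (0.784 to 0.886) without ID2, so that centring kept it below 1 with ID3 as nearly the whole ID level. The part of the length trend in the members' ratios was not tested beyond this.

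**Figure D4:**
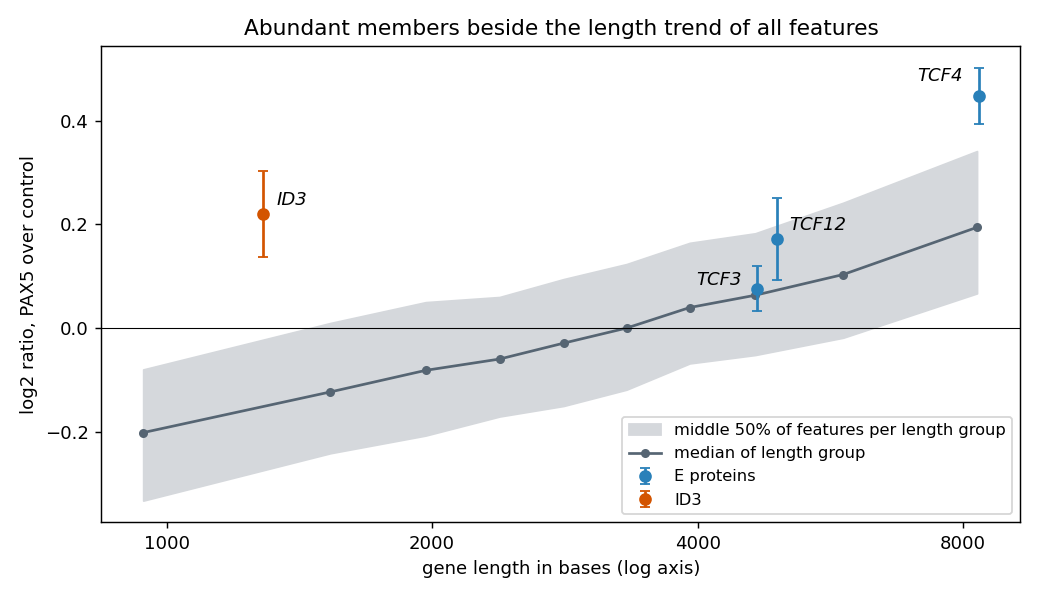
Log2 ratio, PAX5 library over control library, against gene length in bases (log axis) for the 4 abundant members with 95% counting intervals; the line joins the medians of 10 length groups of all features with at least 100 counts and the band spans the middle 50% of each group. TCF3 and TCF12 lie inside the band, and TCF4 and ID3 lie above it.

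The pathway around the members was read from 6 further lists. For comparison, over all measured features 1.34% were called higher and 0.0517% lower, and 18.7% had intervals above 0 and 16.8% below. Tissue-restricted bHLH partners, which pair with E proteins to give lineage-specific dimers, were mostly silent: of 41 genes, 28 had 0 counts in both libraries and 5 reached 10 counts. LYL1, a blood-lineage partner, was the one abundant member, with 913 counts in PAX5 cells and 886 in control cells (log2 ratio -0.06, -0.20 to 0.07). None of the 5 was called. OLIG1, best known from oligodendrocytes, had 62 counts in PAX5 cells and 119 in control cells (log2 ratio -1.05, -1.51 to -0.59). The other measured partners were few in counts: NEUROG2 had 30 in PAX5 cells and 23 in control cells, MESP1 had 10 in each, and ATOH8 had 5 in PAX5 cells and 16 in control cells (log2 ratio -1.78, -3.59 to -0.27). The median of the 5 was -0.11, against -0.01 over all features, but it is loose: their mean was -0.54, and after centring on length the median was 0.06.

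Cofactors of E proteins had 14 of 19 genes measured, 0 called, 4 with intervals above 0 and 4 below, and a median log2 ratio of 0.06. The acetyltransferases EP300 and CREBBP, coactivators that E proteins recruit, had 2446 and 2815 counts in PAX5 cells and 1740 and 2133 in control cells, with log2 ratios of 0.39 (0.30 to 0.48) and 0.29 (0.21 to 0.38). Both are long genes, of 8761 and 10197 bases. Relative to their length group EP300 was at 0.19 (0.10 to 0.28) and CREBBP at 0.10 (0.02 to 0.18). The ETO-family corepressor CBFA2T3 had 2914 counts in PAX5 cells and 2929 in control cells (log2 ratio -0.11), and SSBP2, which stabilises the LDB1 adaptor, had 3112 in PAX5 cells and 2497 in control cells (0.21). LMO4 (log2 ratio -0.12, -0.25 to 0.01) and LDB1 (-0.19, -0.34 to -0.03) bridge bHLH dimers to other factors, and the interval of LMO4 held 0. Relative to its length group LMO4 was at -0.22 (-0.36 to -0.09), below 0.

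Repressors and other bHLH factors that bind E-boxes had 26 of 33 genes measured and 0 called, with 4 intervals above 0 and 4 below and a median of -0.04. ZEB2, a zinc finger repressor that competes for the same sites, had 2222 counts in PAX5 cells and 2158 in control cells (log2 ratio -0.06, -0.15 to 0.02). MYC had 2503 counts in PAX5 cells and 3019 in control cells (-0.38, -0.45 to -0.30), while MGA (0.36) and MXI1 (0.35), which bind E-boxes as MAX partners opposed to MYC, had intervals above 0. USF2 (-0.04) and BHLHE40 (0.11) had intervals that held 0. Relative to their length groups, ZEB2, a long gene of 11655 bases, was at -0.26 (-0.34 to -0.17) and BHLHE40 at 0.14 (0.01 to 0.26). Those intervals did not hold 0.

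Genes known to depend on E proteins in B-cell precursors had 27 of 30 measured, and 3 of them were called, each of them higher. These were PAX5 itself, whose cassette was induced, the repressor BACH2 with 5451 counts in PAX5 cells and 2378 in control cells at 2.13-fold (2.03 to 2.24), and the sphingosine-1-phosphate receptor gene S1PR2 with 233 counts in PAX5 cells and 79 in control cells at 2.74-fold (2.11 to 3.58). Relative to its length group BACH2 had a log2 ratio of 0.90 (0.83 to 0.97), below the rule. With an assumed biological coefficient of variation of 0.1, 1 of the 3 calls was left, that of PAX5 itself. The most abundant targets had small ratios on both sides of 0: the recombinase genes RAG1 and RAG2 had log2 ratios of -0.09 and 0.07, DNTT, which adds bases at the joints, had -0.19, CDK6 had -0.10, and cyclin D3 (CCND3) and LEF1 had 0.22 and 0.19. Relative to their length groups RAG1 was at -0.19, RAG2 at 0.10, DNTT at -0.11, CDK6 at -0.30, CCND3 at 0.28 and LEF1 at 0.15. Of the unadjusted intervals, 12 lay above 0, that of PAX5 among them, and 8 below, and the median was 0.12. Most of the measured targets had at least 1000 counts. Over all features with that many, 28.7% had intervals above 0 and 53.8% had intervals off 0.

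Outside the naming rule, and chosen after its value was seen, FOXO1, a target that acts beside TCF3 and EBF1, had 5043 counts in PAX5 cells and 3347 in control cells, a log2 ratio of 0.49 (0.42 to 0.55). EBF1 itself had 7945 counts in PAX5 cells and 7354 in control cells, a log2 ratio of 0.01 (-0.04 to 0.05). Relative to its length group EBF1 was at -0.10 (-0.14 to -0.05). BCL2, chosen in the same way, had 3425 counts in PAX5 cells and 4839 in control cells (-0.60, -0.67 to -0.54).

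BMP and TGF-beta ligands and receptors, SMADs and the EGR factors made up most of the list of genes upstream of ID transcription. The list also held SMURF1, SMURF2 and the EGR corepressors NAB1 and NAB2, and so mixed activators with inhibitors. Of its 32 genes 25 were measured, with 1 called higher and 1 lower. The lower one was EGR1, an immediate early factor that induces Id3 in mouse thymocytes, with 6 counts in PAX5 cells and 110 in control cells, 19.7-fold lower (8.78 to 54.9). The higher one, EGR3, had 10 counts in PAX5 cells and 0 in control cells, and its PAX5 level was 3.10-fold that of a floor of 3 control counts. The lower bound of its counting interval, on which the call rests, was 2.08-fold. After centring on length that bound was 0.995 on the log2 scale, just short of the rule, and after centring on length and GC content 2 genes of the list were again called. The median of the list was 0.17 and its mean -0.06, so they differed in sign. With the control count of EGR3 set at the floor of 3 counts the median was also 0.17.

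The BMP and TGF-beta branch of that list held no called gene. The coreceptor ENG (log2 ratio 0.33), SMAD4 (0.17), which partners all receptor-activated SMADs, and the BMP receptor BMPR2 (0.26) had intervals above 0, SMAD5 (-0.12) and the ligand gene TGFB1 (-0.37) below, and SMAD2 (-0.03) held 0. Relative to their length group, SMAD4 was at -0.02 (-0.12 to 0.08) and BMPR2 at 0.07 (-0.05 to 0.18), so both intervals held 0. On the same footing SMAD2 was at -0.23 (-0.32 to -0.13) and SMAD5 at -0.31 (-0.41 to -0.21), both below 0. ENG was then at 0.33 (0.24 to 0.42) and TGFB1 at -0.31 (-0.42 to -0.19). SMAD7, an inhibitory SMAD induced by the pathway and named here after its value was seen, had 149 counts in PAX5 cells and 56 in control cells, 2.47-fold (1.81 to 3.42), and did not pass the rule. ID1, the ID gene most closely tied to BMP signalling, had 8 counts in each library.

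Genes that set the turnover of ID proteins had 11 of 11 measured and 0 called, with 1 interval above 0 and 1 below and a median of -0.03. USP1, a deubiquitinase that stabilises ID proteins, had 4831 counts in PAX5 cells and 4568 in control cells (log2 ratio -0.03, -0.08 to 0.03). Relative to its length group USP1 was at -0.065 (-0.123 to -0.006), an interval just below 0. CDC20 (-0.19) and FZR1 (0.17), activators of the anaphase-promoting ubiquitin ligase, lay on either side of 0, with intervals that held 0 after centring on length, as CDC27 (0.05), SKP2 (0.02) and COPS5 (-0.09) did with intervals that held it.

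**Figure D5:**
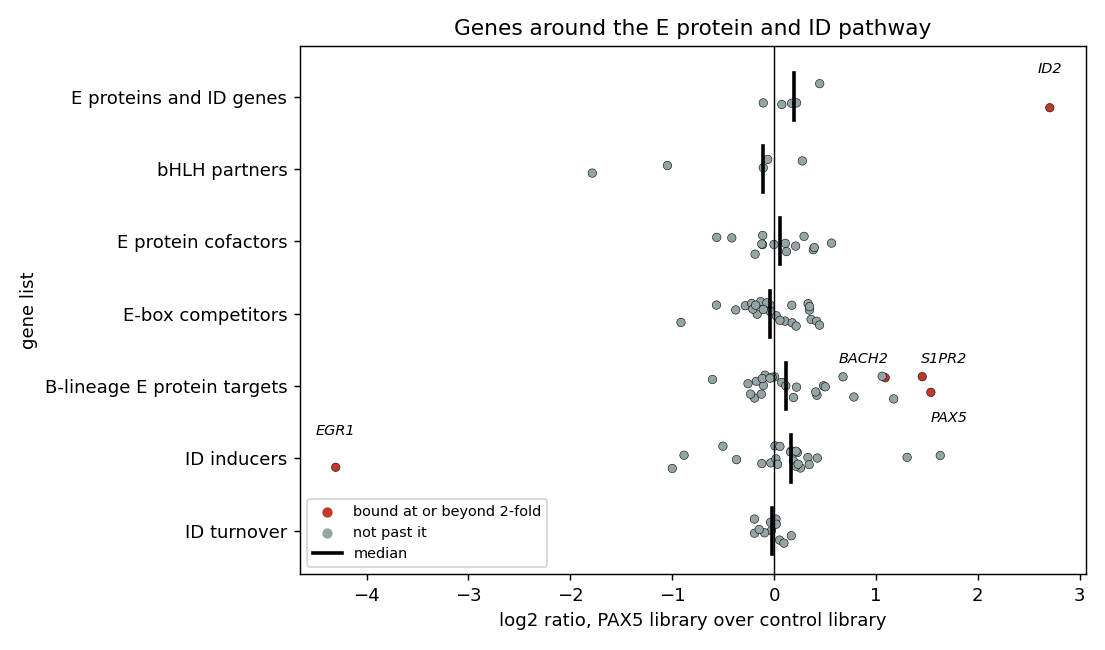
Log2 ratio, PAX5 library over control library, of every gene with at least 10 counts and a count above 0 in each library, by list, with the median as a bar and called genes in red. EGR3, with 0 control counts, has no ratio and is not drawn, and outside the B-lineage targets the called genes drawn are ID2 at 2.71 and EGR1 at -4.30.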

How the data were processed

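RNA from 2 sorted REH cultures was sequenced, 1 library per group, with groups taken from the genotype labels. In the deposited files each gene has a whole-number read count, not normalized, and a length in bases. The submitters' processing notes name featureCounts and the build hg19 (GRCh37). For the aligner, the strand setting and reads with several matches, settings were not given in the sources used here. The table of the series and the files of single libraries held the same 51404 values.

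Gene symbols came by Entrez number from RefSeq (GRCh38.p14) and matched 23696 of 25702 features. That build was also used for neighbouring genes and start-site sequences, and its coordinates were not joined to the counts. TMM factors from edgeR 4.0.16 under R 4.3.3 scaled both libraries, on features with at least 10 counts. Clopper-Pearson 95% intervals, conditional on a gene's summed count, came from scipy 1.17.1. PCR copies are not separate molecules, so intervals and the floor of 3 counts cover counting error only. A lone library per group leaves no residual degrees of freedom, so no count test was run, and the 2-fold rule on the interval bound was used instead. The interval of the E protein to ID quotient came from the delta method on independent counts. The calculation was checked on simulated counts.

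The members, the lists and the rule were chosen with earlier results of these data known. Named are the 7 members, every list gene past the rule, and up to 6 others of each list with the highest summed count, besides genes said to be chosen after their values were seen. Likeness to other genes was not computed, because 2 libraries give 1 ratio per gene. Alternatives were 3 other scalings (total counts, DESeq2 1.42.0 size factors and upper quartile), centring on length or on length and GC content (GENCODE transcripts, 94.3% of features matched), an assumed biological variation, other bounds and count minimums, and the single files.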

Additional observations from a re-analysis of the deposited data

How the results depend on the processing

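ID2 remained the 1 member called under every alternative run: 3 other scalings, both centrings, assumed biological coefficients of variation (0.1 or 0.2), bounds at 1.5-fold and 4-fold, a point ratio, no count minimum or one of 50, and the single files. Its log2 ratio ranged from 2.68 to 2.83. With the coefficient of 0.1, TCF4 (0.04 to 0.85) and ID2 had intervals above 0, and with 0.2 ID2 alone (1.78 to 3.65). With either coefficient the intervals of the summed E protein and summed ID ratios held 0. Those intervals are of ratios before centring on length, and centring was not combined with an assumed variation. Centring on length gave log2 ratios of 0.013 for TCF3, 0.25 for TCF4 and 0.34 for ID3, and centring on length and GC content gave 0.031, 0.20 and 0.36. The summed E protein log2 ratio was 0.18 with upper-quartile scaling. The quotient of E protein to ID level, PAX5 over control, was 0.767 after length centring, 0.969 without ID2 and 0.834 with both, all chosen after seeing the data.

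Called ID inducers numbered 1 in place of 2 under length centring, either assumed variation, the 4-fold bound and the minimum of 50. Called B-lineage targets numbered 1 (PAX5 itself) and 0 in place of 3 with an assumed variation of 0.1 and 0.2. They numbered 2 with upper-quartile scaling and under either centring, 4 at the 1.5-fold bound, 0 at the 4-fold bound and 5 by the point ratio. Called bHLH partners numbered 1 at the 1.5-fold bound and 2 by the point ratio in place of 0. Over all features, in place of 182 higher and 7 lower, there were 355 and 47 at 1.5-fold, 70 and 2 at 4-fold, 504 and 234 by the point ratio and 113 and 4 with the minimum of 50. Higher calls numbered 111 and 87 with the assumed variations of 0.1 and 0.2, and lower calls 3 with that of 0.2 and 4 under either centring. List medians moved too. With length centring, and with length and GC centring, they were 0.061 and 0.084 for bHLH partners, 0.019 and 0.053 for E-box competitors (a change of sign in both lists) and 0.050 and 0.063 for ID inducers, and ID turnover was at 0.00085 with the second. With members of at least 100 counts the median was -0.55 for bHLH partners and -0.00037 for cofactors. Means were -0.54 for bHLH partners, 0.31 for B-lineage targets and -0.057 for ID inducers. ID1 and ID4 were limited by depth. No paired analysis was possible because each group has 1 library.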

Other observations

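The nearest protein-coding gene on each side of every member, in RefSeq order, gave 14 neighbours, of which 12 had at least 10 counts and 1 was called. That gene was CGNL1, which encodes a junction protein and lies beside TCF12, with 105 counts (8.83 CPM) in PAX5 cells and 11 counts (0.996 CPM) in control cells, 8.87-fold (4.76 to 18.3). TCF12 itself had a ratio of 1.13-fold, and its neighbour on the other side, ZNF280D, had 365 counts in PAX5 cells and 422 in control cells (log2 ratio -0.32, -0.52 to -0.11).

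The neighbours of ID2 were not called. RNF144A had 478 counts in PAX5 cells and 386 in control cells (log2 ratio 0.20, 0.01 to 0.40), and KIDINS220 had 1416 in PAX5 cells and 1073 in control cells (0.29, 0.18 to 0.41). The antisense gene ID2-AS1 had 3 counts in PAX5 cells and 2 in control cells. E2F2, beside ID3, had 2906 counts in PAX5 cells and 2247 in control cells (log2 ratio 0.27, 0.19 to 0.34), and RPL11, on the other side, had 15567 in PAX5 cells and 16234 in control cells (-0.17, -0.20 to -0.13).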
